A study of Mus musculus with 9 samples.

Results

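The 9 genes described here, Trem2, Gpnmb, Tyrobp, Spp1, Apoe, Lpl, Lgals3, Cd9 and Plin2, belong to the expression signature known from lipid-laden macrophages, and they were measured in the lungs of mice given copper oxide nanoparticles. They were chosen by symbol from the 57010 gene identifiers of the deposited table, and all 9 had a row and passed the abundance filter that left 15487 genes. Each library came from the lung of a different C57BL/6J mouse, an inbred strain, with 3 mice in each of 3 groups, and all lungs were taken on day 7. Mice of the CuO_TTM group received copper oxide nanoparticles, 100 µl at 2 mg/mL in sterile saline given once into the trachea, and drank water with 0.02 mg/mL TTM every day. The CuO group received the same particles without TTM, and the control group received 100 µl of sterile saline. The labels do not spell out TTM. No group received TTM without particles, so an effect of TTM by itself cannot be told apart from one on the response to the particles. Values are TPM, a measure of transcript abundance scaled by length and by a total that is equal in all libraries, and the depth behind them is unknown.

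Macrophages that take up more lipid than they can break down store it in droplets, and such cells are known from fat tissue, arterial plaques, the brain and injured lung. TREM2 is a surface receptor for lipids and lipoproteins that has no signalling tail of its own and works through the adaptor TYROBP, which recruits the kinase SYK. In the lung, macrophages clear surfactant lipid and inhaled particles, and macrophages with high Spp1, Gpnmb and Trem2 are known from fibrotic lung tissue. Whole lung RNA does not show which cells held a transcript. A difference may come from a change in the number of cells of a type or in the RNA per cell, and these cannot be told apart.

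The sequences before the start sites of 4 of the genes are shown because the results turn on these genes. Trem2, Gpnmb and Spp1 are those with the largest differences between CuO and control lungs, and Plin2, the lipid droplet gene, is 1 of the 3 whose groups overlapped. RefSeq windows on the build GRCm38.p6, which is not the build GRCm39 named for the table, were found for 7 of the 9 genes, and Tyrobp and Lpl are named only. Each line holds 250 bases before the start site and 30 after it, 5′ to 3′ on the strand of the gene, in lower case with motif matches in capitals. The positions are chr17:48346151-48346430 on the plus strand for Trem2, chr6:49036268-49036547 on the plus strand for Gpnmb, chr5:104434861-104435140 on the plus strand for the first of the Spp1 windows, and chr4:86670030-86670309 on the minus strand for Plin2.
Trem2: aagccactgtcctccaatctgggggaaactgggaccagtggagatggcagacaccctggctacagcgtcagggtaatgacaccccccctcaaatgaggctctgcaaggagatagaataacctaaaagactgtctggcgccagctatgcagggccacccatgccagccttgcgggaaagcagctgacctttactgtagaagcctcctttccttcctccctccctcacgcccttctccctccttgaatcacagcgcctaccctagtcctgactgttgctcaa
Gpnmb: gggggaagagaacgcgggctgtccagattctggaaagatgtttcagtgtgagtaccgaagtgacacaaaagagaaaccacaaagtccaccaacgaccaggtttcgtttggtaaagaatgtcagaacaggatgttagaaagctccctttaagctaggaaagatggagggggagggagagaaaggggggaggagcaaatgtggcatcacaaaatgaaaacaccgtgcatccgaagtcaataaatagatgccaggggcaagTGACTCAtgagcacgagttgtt
Spp1: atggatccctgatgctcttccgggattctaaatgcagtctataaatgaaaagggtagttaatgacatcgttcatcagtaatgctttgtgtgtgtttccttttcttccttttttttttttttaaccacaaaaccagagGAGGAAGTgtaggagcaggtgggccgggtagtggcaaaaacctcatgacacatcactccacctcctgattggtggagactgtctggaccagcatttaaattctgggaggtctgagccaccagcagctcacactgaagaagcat
Plin2: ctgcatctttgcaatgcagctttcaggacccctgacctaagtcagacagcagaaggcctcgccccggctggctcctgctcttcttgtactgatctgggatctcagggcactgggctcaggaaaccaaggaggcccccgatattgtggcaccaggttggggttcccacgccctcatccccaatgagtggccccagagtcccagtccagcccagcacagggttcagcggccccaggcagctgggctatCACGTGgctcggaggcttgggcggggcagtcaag
The capitals mark CACGTG, the E-box of the MiT/TFE factors, at position -4 in Plin2, TGACTCA, the AP-1 motif, at position 9 in Gpnmb, and GAGGAAGT, a PU.1 motif, at position -113 in Spp1, counted from the start site. Both strands of all 10 windows of these genes were searched, and none of the motifs overlapped another. Of 32851 RefSeq promoter windows, 7.15% held CACGTG, 5.20% held TGACTCA and 3.20% held GAGGAAGT. The last pair of motifs was added after the sequences had been seen. The PPAR-RXR direct repeat of AGGTCA with 1 base between was in 0.0396% of all windows and the LXR-RXR direct repeat with 4 bases between in 0.0152%, and neither was in a window of these genes. A match is a description of the letters and not of a bound site.

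The libraries differed in ways that touch these genes. Sftpc, the defining transcript of alveolar type 2 cells, was 17957 TPM in its lowest library, so the tissue label held for each library. Scgb1a1, the secretory protein of airway club cells, made up 8.17%, 0.18% and 0.353% of TPM in CuO_TTM replicates 1, 2 and 3, 6.90% to 12.3% in CuO lungs and 17.3% to 22.5% in control lungs. Since TPM share a fixed total, a lower Scgb1a1 raises all other values, and the median log2 difference over all tested genes was 0.24 in CuO_TTM against control, 0.19 in CuO_TTM against CuO and 0.03 in CuO against control. CuO replicate 1 stood apart from the other libraries, with correlations across genes of 0.864 to 0.901. CuO_TTM replicate 1 held adipocyte transcripts, with a summed level of 343 TPM over 5 markers, against 3.77 and 5.37 TPM in the other CuO_TTM lungs, 2.65 to 5.80 TPM in CuO lungs and 2.88 to 59.6 TPM in control lungs. Lep, a defining adipocyte transcript, was listed at 0 in CuO_TTM replicates 2 and 3, CuO replicates 1 and 2 and control replicates 2 and 3, and Adipoq was listed at 0 in control replicate 3 and Plin1 in CuO replicate 1.

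How the particles alone altered the lung is the question of CuO against control, and results of these data were known when the genes were chosen. Which comparison served for the choice is not recorded. CuO against control was taken to be that comparison, so the values in it are a description with no test. Trem2, Gpnmb, Tyrobp, Spp1, Apoe and Lgals3 were higher in each CuO lung than in each control lung, while Lpl, Cd9 and Plin2 overlapped. Of all 15487 genes tested, 9.37% were higher in CuO lungs without overlap and 0% passed limma at an adjusted p under 0.05, with 1231 genes at an unadjusted p under 0.05. The median log2 difference of the 9 genes was 1.51, beside 0.03 for all genes. When TTM was added to the particles, none of the 9 genes differed from CuO lungs past the threshold, where 0.710% of all genes did, and the groups overlapped for each of the 9, while 11.8% of all genes did not overlap. CuO_TTM lungs were set against control lungs with the same 3 control libraries, so that result is not independent of the choice, and its p-values would be circular if it had served for the choice as well. In it Trem2, Gpnmb and Lgals3 passed the threshold, 3 of 9, beside 1.90% of all genes, where 1.79% of all genes were called higher. Groups did not overlap for 5 of the 9 genes, all higher in CuO_TTM lungs, as for 31.0% of all genes, with 5.73% lower without overlap. All 6 particle-exposed lungs exceeded all 3 control lungs for 5 of the 9 genes (Trem2, Gpnmb, Tyrobp, Apoe and Lgals3), as they did for 6.99% of all genes.

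**Figure D1:**
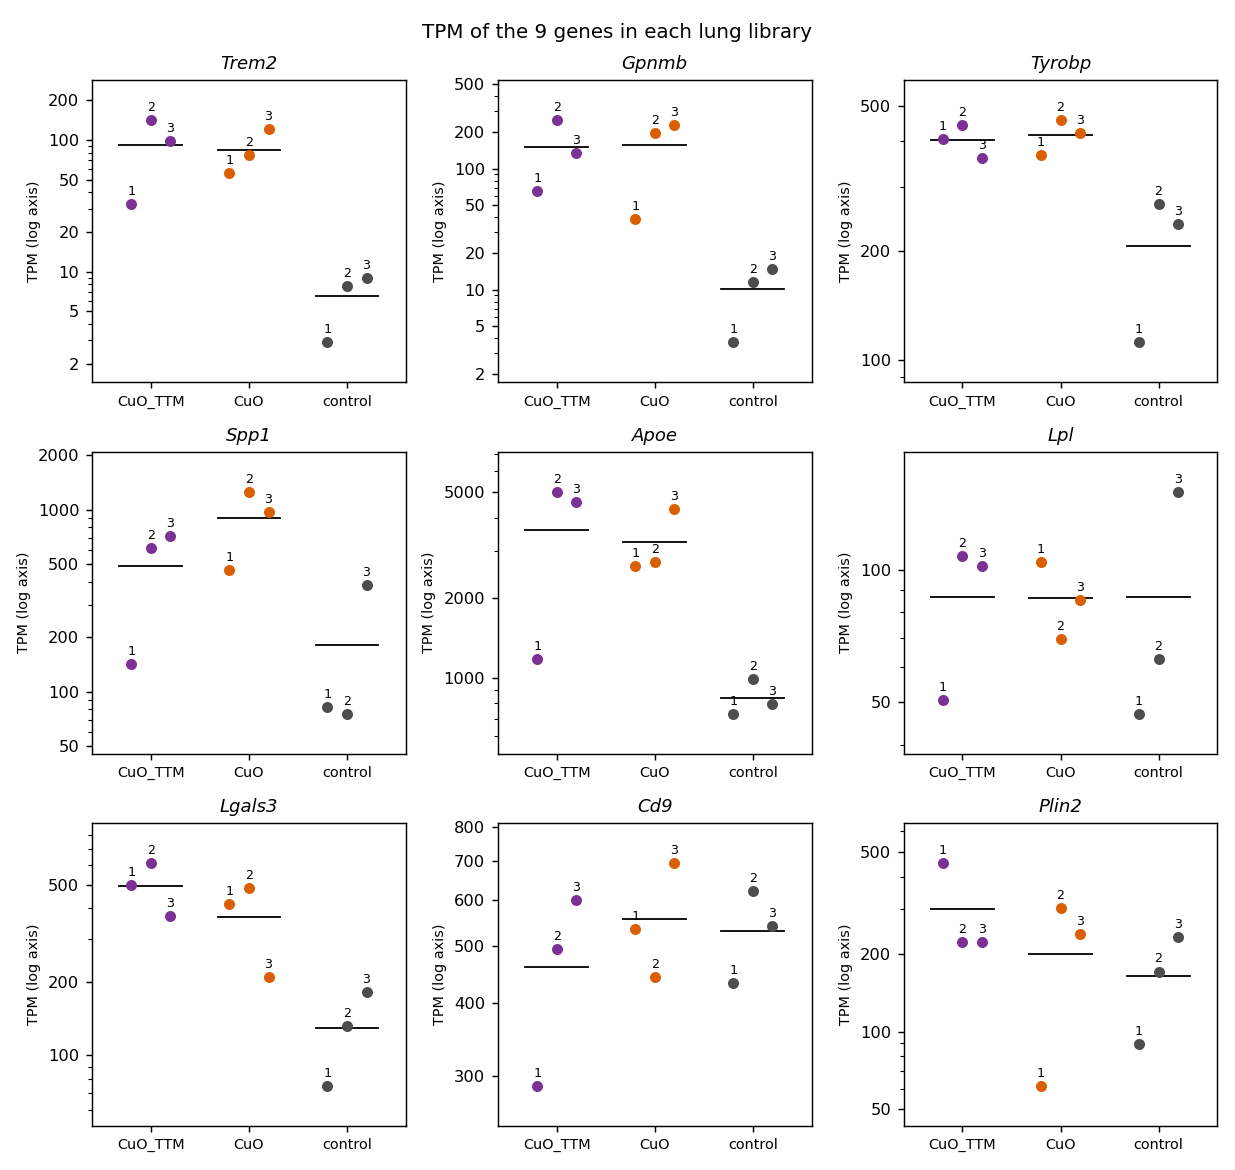
TPM of each of the 9 genes (log axes) in the lungs of 3 mice per group, CuO_TTM, CuO and control, with a point per library labelled by its replicate number and a bar at the group mean. For Trem2 the 6 particle-exposed lungs sit between 32.4 and 142 TPM and the control lungs between 2.92 and 8.97 TPM, while for Lpl, Cd9 and Plin2 the groups overlap.

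Trem2 (ENSMUSG00000023992), the lipid receptor, had 32.4, 142 and 97.6 TPM in CuO_TTM replicates 1, 2 and 3, 55.7, 77.2 and 120.1 TPM in CuO lungs and 2.92, 7.76 and 8.97 TPM in control lungs. The lowest particle-exposed lung, CuO_TTM replicate 1, was above the highest control lung, and the CuO_TTM lungs enclosed the CuO lungs on both sides. Group means were 90.7 ± 55.3 TPM in CuO_TTM lungs, 84.3 ± 32.8 TPM in CuO lungs and 6.55 ± 3.20 TPM in control lungs (SD, n = 3 each). CuO_TTM lungs were higher than control lungs by 3.48 on the log2(TPM + 1) scale (SE 0.57, 95% interval 2.20 to 4.75, limma adjusted p = 0.0246), and higher in 3 of 3 lungs. Against CuO lungs the difference was -0.06 (95% interval -1.33 to 1.21, limma adjusted p = 0.986). The call against control was lost without CuO_TTM replicate 2 (adjusted p = 0.131), CuO_TTM replicate 3 (0.0829), control replicate 1 (0.118), control replicate 2 (0.105) or control replicate 3 (0.0639), with the log2 difference between 3.04 and 4.09 over all single libraries left out. It was also lost with no filter on abundance (0.0764). Between CuO and control lungs the difference of the means was 3.54 on the same scale.

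Tyrobp (ENSMUSG00000030579), the adaptor through which TREM2 signals and which other receptors of myeloid and natural killer cells share, was the more abundant of the pair. It had 406, 444 and 359.9 TPM in CuO_TTM lungs, 366, 458 and 422 TPM in CuO lungs and 112, 268.5 and 237 TPM in control lungs. All 6 particle-exposed lungs lay above all control lungs, and they differed little among themselves. CuO_TTM lungs were above control lungs by 1.06 on the log2 scale, which did not pass the threshold (95% interval 0.33 to 1.79, limma adjusted p = 0.137). Against CuO lungs the log2 difference was -0.04 (95% interval -0.77 to 0.69, adjusted p = 0.983). The receptor differed more than its adaptor: Trem2 stood at 7.98, 32 and 27.1 TPM per 100 TPM of Tyrobp in CuO_TTM lungs, 15.2, 16.9 and 28.5 in CuO lungs and 2.603, 2.89 and 3.79 in control lungs. The ratio did not overlap between particle-exposed and control lungs, and this was not tested.

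Gpnmb (ENSMUSG00000029816), a transmembrane glycoprotein of lysosomes and the cell surface and a known target of the MiT/TFE factors, had 65.8, 255 and 135 TPM in CuO_TTM lungs, 38.4, 199 and 231 TPM in CuO lungs and 3.71, 11.7 and 14.95 TPM in control lungs. Replicate 1 was the lowest lung of each group, although the labels do not link replicate numbers across groups. Means were 152 ± 95.7 TPM in CuO_TTM lungs, 156 ± 103 TPM in CuO lungs and 10.1 ± 5.79 TPM in control lungs (SD, n = 3 each). The log2 difference between CuO_TTM and control lungs was 3.75 (SE 0.76, 95% interval 2.05 to 5.45, limma adjusted p = 0.0441), with 3 of 3 lungs higher. Between CuO_TTM and CuO lungs it was 0.11 (95% interval -1.59 to 1.82, adjusted p = 0.979), an interval that holds differences of over 1 in either direction. The call against control was lost without CuO_TTM replicate 2 (adjusted p = 0.203), CuO_TTM replicate 3 (0.130), CuO replicate 3 (0.0535), control replicate 1 (0.184), control replicate 2 (0.140) or control replicate 3 (0.0848), after rescaling without Scgb1a1 (0.0659), with a pseudocount of 0.1 (0.0575) and with no filter (0.124). Gpnmb and Trem2 were the pair of the 9 genes with the highest correlation over the 9 libraries, a Pearson r of 0.97.

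Among the secreted proteins, Apoe (ENSMUSG00000002985), the lipoprotein component that carries cholesterol out of macrophages, was the most abundant of the 9 genes in every group. It had 1179, 5038 and 4604 TPM in CuO_TTM lungs, 2648, 2728 and 4346 TPM in CuO lungs and 729.95, 986 and 792 TPM in control lungs. CuO_TTM replicate 1 lay near the control lungs and the other 5 particle-exposed lungs far above them. Its log2 difference between CuO_TTM and control lungs was 1.86 (95% interval 0.72 to 3.00, limma adjusted p = 0.106), which missed the threshold. Without CuO_TTM replicate 1 it was 2.54 (adjusted p = 0.0103), so that library decides the call. Against CuO lungs the difference was -0.07 (95% interval -1.21 to 1.08, adjusted p = 0.982).

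Spp1 (ENSMUSG00000029304), which encodes osteopontin, a secreted ligand of integrins and CD44, had 142, 618 and 715 TPM in CuO_TTM lungs, 464, 1257 and 966 TPM in CuO lungs and 81.9, 75.6 and 383 TPM in control lungs. The CuO lungs did not overlap the control lungs, but CuO_TTM replicate 1 lay below control replicate 3, so CuO_TTM and control lungs overlapped. Of the 9 genes it had the lowest difference between CuO_TTM and CuO lungs, -1.05 on the log2 scale, and this did not pass the threshold (95% interval -2.77 to 0.67, limma adjusted p = 0.858). Against control the difference was 1.57 (95% interval -0.15 to 3.29, adjusted p = 0.318). Between CuO and control lungs it was 2.62, and the control lungs alone spanned a ratio of 5.08 between the highest and the lowest.

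Lgals3 (ENSMUSG00000050335), galectin-3, a sugar-binding protein abundant in macrophages, had 499.6, 611 and 372 TPM in CuO_TTM lungs, 415, 485 and 209 TPM in CuO lungs and 75.2, 131 and 182 TPM in control lungs. Unlike Trem2 and Apoe, it was not low in CuO_TTM replicate 1. CuO_TTM lungs averaged 494 ± 119 TPM, CuO lungs 370 ± 143 TPM and control lungs 129 ± 53.3 TPM (SD, n = 3 each). CuO_TTM lungs were higher than control lungs by 1.98 on the log2 scale (SE 0.41, 95% interval 1.07 to 2.90, limma adjusted p = 0.0459) in 3 of 3 lungs. They differed from CuO lungs by 0.48 (95% interval -0.44 to 1.39, adjusted p = 0.864). The call against control lay close to the threshold. It was lost under quantile normalization (adjusted p = 0.0689), median-ratio scaling (0.120), rescaling without Scgb1a1 (0.0834), a pseudocount of 0.1 (0.0603) and no filter (0.119). It was also lost without CuO_TTM replicate 1 (0.0855), CuO_TTM replicate 2 (0.217), CuO_TTM replicate 3 (0.0962), control replicate 1 (0.189), control replicate 2 (0.157) or control replicate 3 (0.0741).

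For Plin2, Lpl and Cd9 all groups overlapped. Plin2 (ENSMUSG00000028494), the coat protein of lipid droplets, had 451, 223 and 223 TPM in CuO_TTM lungs, 61.6, 303 and 239 TPM in CuO lungs and 89.5, 171 and 234 TPM in control lungs. The highest value was that of CuO_TTM replicate 1, the lung with the highest adipocyte marker sum (343 TPM), and the lowest that of CuO replicate 1. Control replicate 1 had the next highest adipocyte sum (59.6 TPM), and its Plin2 was the lowest of the control lungs. Whether adipocytes in the sample raised Plin2 was not tested. Its log2 difference was 0.77 between CuO_TTM and CuO lungs (95% interval -0.58 to 2.13, limma adjusted p = 0.860) and 0.88 between CuO_TTM and control lungs (95% interval -0.48 to 2.23, adjusted p = 0.492).

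Lpl (ENSMUSG00000015568), lipoprotein lipase, which frees fatty acids from circulating lipoproteins, had 50.7, 107 and 102 TPM in CuO_TTM lungs, 104, 69.7 and 85.5 TPM in CuO lungs and 47.1, 62.6 and 150.2 TPM in control lungs. The group means were almost equal, 86.5 ± 31.1 TPM in CuO_TTM lungs, 86.4 ± 17.1 TPM in CuO lungs and 86.6 ± 55.6 TPM in control lungs (SD, n = 3 each). Its log2 difference was -0.05 between CuO_TTM and CuO lungs (95% interval -1.06 to 0.95, limma adjusted p = 0.985) and 0.10 between CuO_TTM and control lungs (95% interval -0.90 to 1.11, adjusted p = 0.936), intervals that hold changes of up to about 1 on the log2 scale. The sign of the difference from control flipped under quantile normalization, median-ratio scaling and rescaling without Scgb1a1.

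Cd9 (ENSMUSG00000030342), a tetraspanin found on many cell types besides macrophages, had 289, 495 and 602 TPM in CuO_TTM lungs, 537, 443 and 694 TPM in CuO lungs and 432, 622 and 542 TPM in control lungs. It was lowest in CuO_TTM replicate 1. The log2 difference was -0.31 between CuO_TTM and CuO lungs (95% interval -1.02 to 0.40, limma adjusted p = 0.879) and -0.25 between CuO_TTM and control lungs (95% interval -0.96 to 0.46, adjusted p = 0.732). In CuO against control the differences of Plin2, Cd9 and Lpl were 0.11, 0.06 and 0.16, and all 3 signs flipped when the table was rescaled without Scgb1a1.

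**Figure D2:**
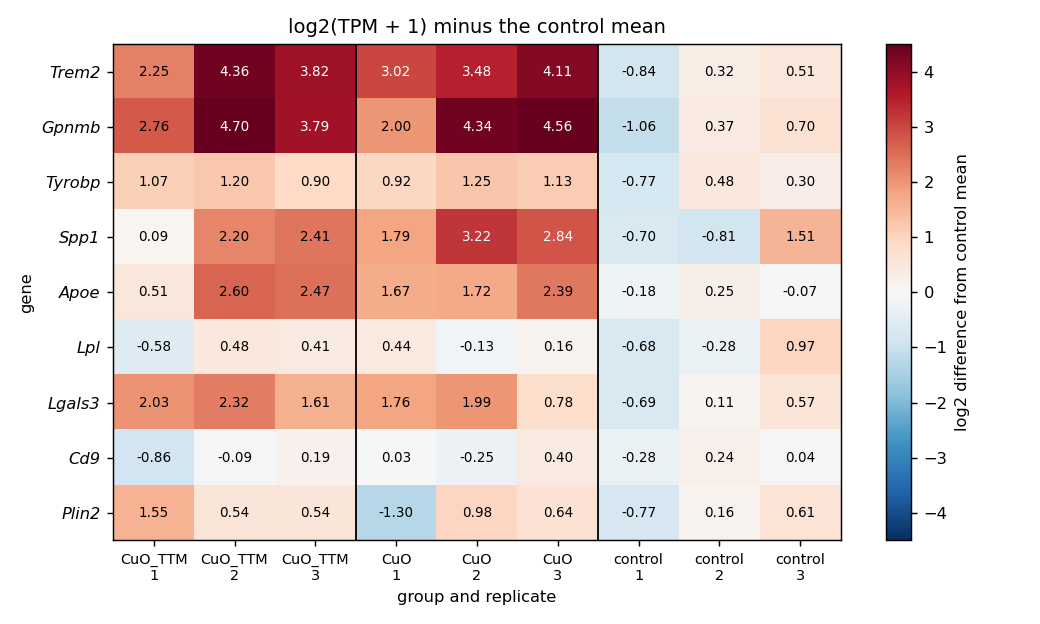
Difference of log2(TPM + 1) from the mean of the 3 control lungs for each gene (rows) and library (columns, 3 CuO_TTM, 3 CuO and 3 control lungs), with red above and blue below the control mean. Trem2 and Gpnmb are at 2.00 or more in each particle-exposed lung, and CuO_TTM replicate 1 is at 0.51 for Apoe and 0.09 for Spp1.

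**Figure D3:**
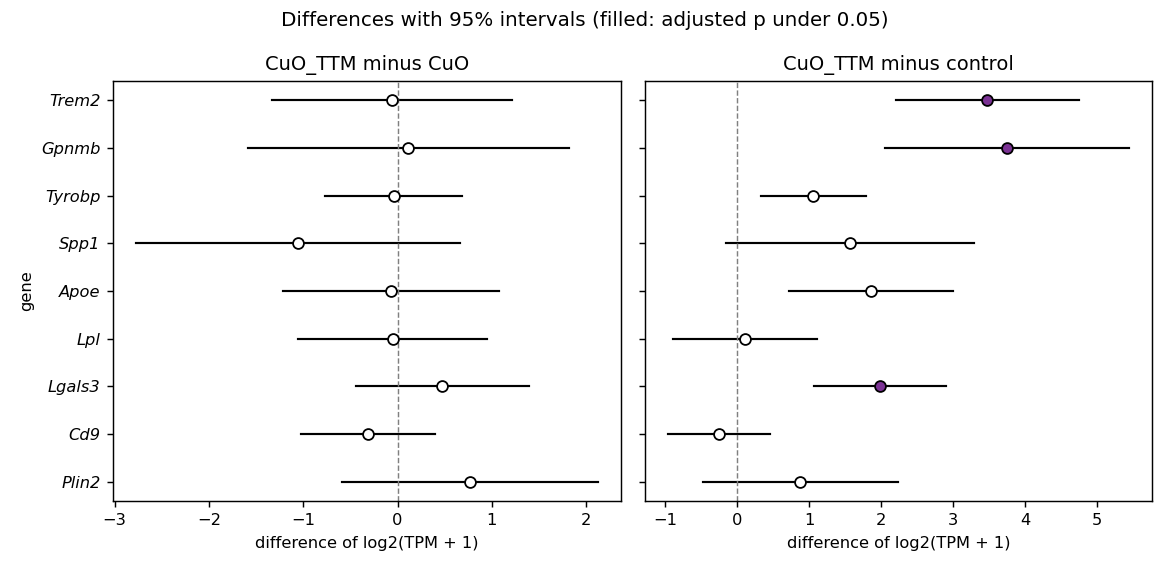
Difference of log2(TPM + 1) for each gene between CuO_TTM and CuO lungs (left) and between CuO_TTM and control lungs (right), 3 mice per group, with 95% intervals from limma and filled points where the adjusted p was under 0.05. Every interval on the left holds 0, and Trem2, Gpnmb and Lgals3 are filled on the right.

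In order of mean level, CuO_TTM lungs had Apoe, Lgals3, Spp1, Cd9, Tyrobp, Plin2, Gpnmb, Trem2 and Lpl, CuO lungs had Apoe, Spp1, Cd9, Tyrobp, Lgals3, Plin2, Gpnmb, Lpl and Trem2, and control lungs had Apoe, Cd9, Tyrobp, Spp1, Plin2, Lgals3, Lpl, Gpnmb and Trem2. TPM are per length and so can be set side by side between genes. In CuO_TTM and in CuO lungs Apoe lay above its neighbour without overlap, and each further neighbouring pair overlapped. In control lungs the steps without overlap were those from Apoe to Cd9, from Cd9 to Tyrobp and from Lpl to Gpnmb, so that Gpnmb and Trem2 lay below all other genes. As a description over the 9 libraries, in which the groups themselves differ, the genes with a pattern most like that of Trem2 among 10454 candidates were Cdk1 (r = 0.98), Supt3 (r = 0.97), Gpnmb (r = 0.97), Ccnb1 (r = 0.97) and Lin9 (r = 0.96). For Gpnmb they included Mfsd12, Lpcat2, Hist1h1c and Trem2 (r = 0.97 each). Within the 9 genes, Cd9 and Plin2 had the lowest correlation, an r of -0.32.

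Macrophage marker lists differed between the groups as well, not all in the same way. The 10 monocyte and interstitial macrophage markers summed to 1228 to 2494 TPM in CuO_TTM lungs, 648 to 1938 TPM in CuO lungs and 311 to 713 TPM in control lungs, with no marker at 0 in any library. In CuO_TTM against control, C1qa, C1qb, C1qc and Ms4a7 passed the threshold (log2 differences of 2.30, 2.51, 2.32 and 3.61). The other markers of this list did not, with F13a1 at 0.11 and Mrc1 at 0.15. The 10 alveolar macrophage markers summed to 242 to 2003 TPM in CuO_TTM lungs, 274 to 1281 TPM in CuO lungs and 529 to 1454 TPM in control lungs, so the groups overlapped, again with none at 0. Chil3 held 1527 of the 2003 TPM in CuO_TTM replicate 3, and Car4, also a capillary marker, 93.1 of the 242 TPM in CuO_TTM replicate 1. Single markers parted. Fabp1 was lower in CuO_TTM lungs than in control lungs (-3.18 on the log2 scale, limma adjusted p = 0.0372). Its difference from CuO lungs was 0.05 (limma adjusted p = 0.990). Marco was higher in CuO_TTM lungs than in CuO lungs (3.63, limma adjusted p = 0.0425). Its difference from control lungs was 2.04 and did not pass the threshold (limma adjusted p = 0.144). In CuO_TTM replicate 1, where Trem2, Apoe and Spp1 were the lowest of their group, the alveolar macrophage sum was also the lowest of its group. Its monocyte and interstitial macrophage sum was the highest of the group, but Ly6c2, a monocyte marker, held 1268 of the 2494 TPM, and the mean log2 level of the list was 6.38 there and 6.49 in CuO_TTM replicate 2. The 8 pan-macrophage markers summed to 3653 to 14620 TPM in CuO_TTM lungs, 5740 to 17195 TPM in CuO lungs and 7105 to 10122 TPM in control lungs, but Lyz2, which alveolar type 2 cells also express, made up 81.8% to 98.3% of that sum. Without Lyz2 the sums were 525 to 664 TPM in CuO_TTM lungs, 183 to 654 TPM in CuO lungs and 120.2 to 267 TPM in control lungs, so CuO_TTM lungs lay above control lungs without overlap, while CuO replicate 1 lay within the control range. The part of cell numbers in the differences was not tested.

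Set against Cd68, a macrophage lysosomal protein, the 9 genes parted further. Cd68 had 284, 299 and 254 TPM in CuO_TTM lungs, 96.2, 295 and 289.6 TPM in CuO lungs and 28.2, 78.8 and 73.7 TPM in control lungs. Cd68 is itself on the list of genes known from lipid-laden macrophages of other tissues, described below. It was higher in each particle-exposed lung than in each control lung, which by itself lowers a ratio to Cd68. Trem2 per Cd68 was 0.114 to 0.475 in CuO_TTM lungs, 0.262 to 0.579 in CuO lungs and 0.0984 to 0.122 in control lungs, and only CuO_TTM replicate 1 lay within the control range. Gpnmb per Cd68 was 0.231 to 0.851 in CuO_TTM lungs, 0.399 to 0.798 in CuO lungs and 0.131 to 0.203 in control lungs, without overlap between particle-exposed and control lungs. No other gene of the 9 was higher per Cd68 in this way. Tyrobp per Cd68 was 1.42 to 1.48 in CuO_TTM lungs, 1.46 to 3.80 in CuO lungs and 3.21 to 3.97 in control lungs. Plin2 per Cd68 was 0.743 to 1.59 in CuO_TTM lungs, 0.641 to 1.03 in CuO lungs and 2.17 to 3.18 in control lungs. Cd9 per Cd68 was likewise lower in each particle-exposed lung than in each control lung, and Lpl per Cd68 was 0.178 to 0.401 in CuO_TTM lungs, 0.236 to 1.08 in CuO lungs and 0.794 to 2.04 in control lungs, with no overlap between CuO_TTM and control lungs. For Apoe, Spp1 and Lgals3 the ranges of both particle-exposed groups overlapped that of control lungs. These ratios to Cd68 were chosen after the data had been seen and are a description. Ratios to the summed pan-macrophage markers had been planned. In these, Trem2, Gpnmb and Apoe were higher in each particle-exposed lung than in each control lung, and the other genes overlapped. Mean log2 ratios of Tyrobp were -4.42 in CuO_TTM, -4.48 in CuO and -5.39 in control lungs. Without Lyz2 in the sum they were -0.554, -0.0017 and 0.0168. In that case only Trem2 and Gpnmb were higher in each particle-exposed lung, and Plin2 was lower in each.

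**Figure D4:**
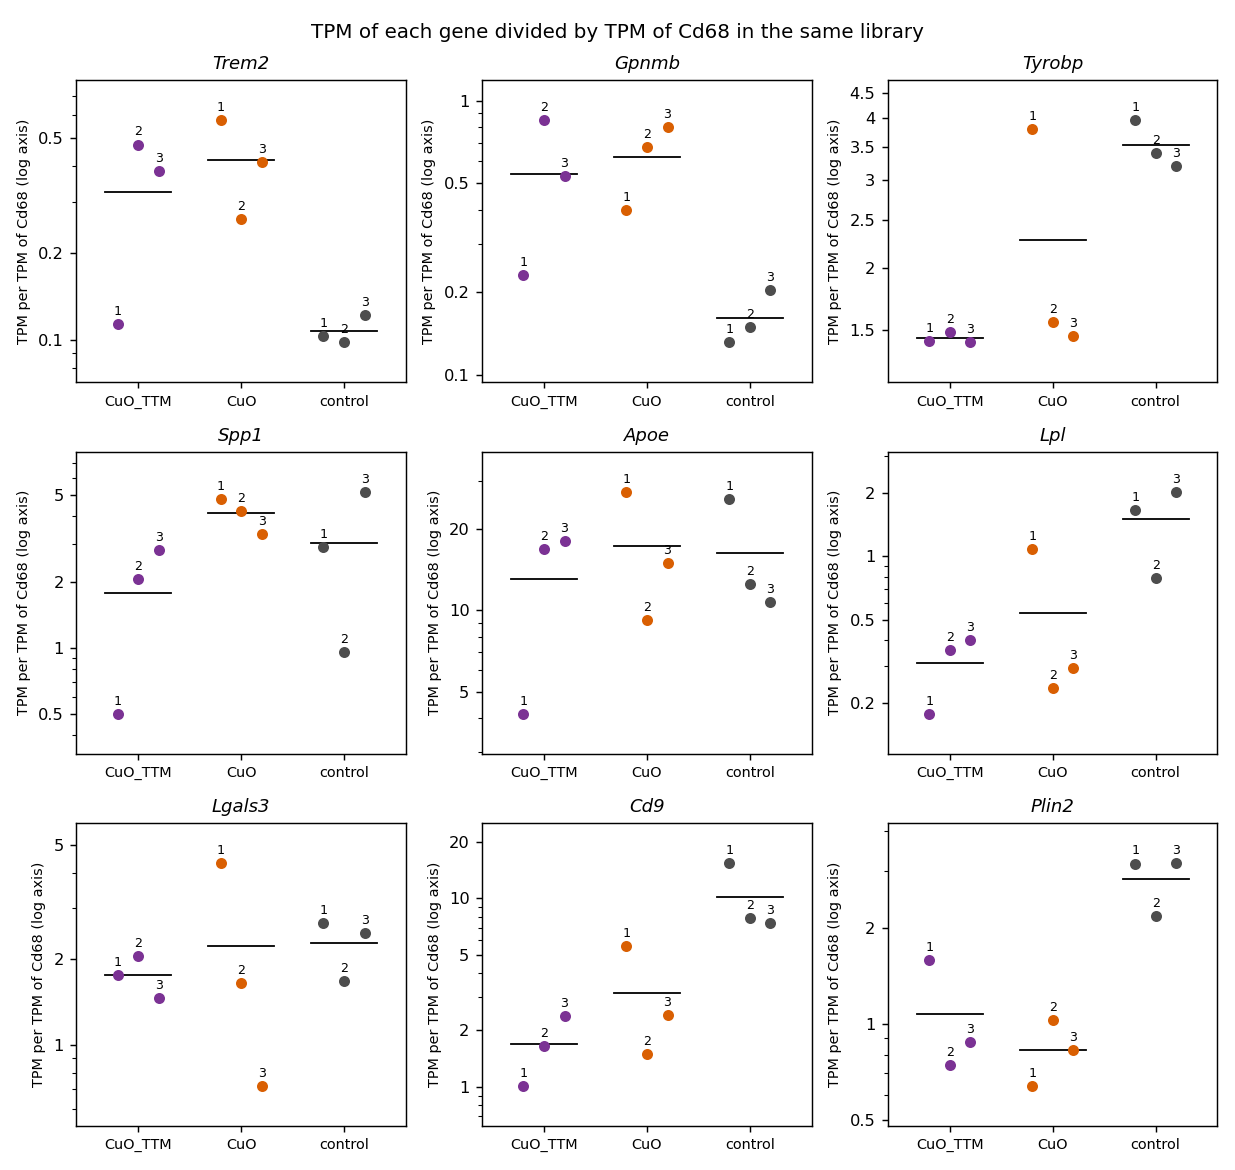
TPM of each gene divided by the TPM of Cd68 in the same library (log axes) for 3 lungs per group, CuO_TTM, CuO and control, with a point per library labelled by its replicate number and a bar at the group mean. Gpnmb per Cd68 is 0.231 or more in the particle-exposed lungs and 0.203 or less in control lungs, while Plin2 per Cd68 is 1.59 or less in the particle-exposed lungs and 2.17 or more in control lungs.

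Genes of the same pathways were grouped by role in 9 lists, chosen with results of these data known. Of the 16 tested genes of TREM2-TYROBP signalling, 1 rose and none fell in CuO_TTM lungs against control, where 1.79% of all genes were called higher (median log2 difference 0.68, beside 0.24 for all genes). This was Hcst, the adaptor DAP10, known as the partner of the receptor NKG2D on natural killer and T cells, with 68.5, 75.3 and 58.3 TPM in CuO_TTM lungs, 8.30, 18.7 and 11.2 TPM in CuO lungs and 12.5, 18.1 and 17.6 TPM in control lungs. All CuO_TTM lungs lay far above all others, and the log2 difference was 2.01 against control (SE 0.31, limma adjusted p = 0.0209) and 2.38 against CuO (SE 0.31, limma adjusted p = 0.0156). The 8 natural killer and T cell markers, with none at 0, summed to 398 to 774 TPM in CuO_TTM lungs, 54.8 to 133 TPM in CuO lungs and 104 to 181 TPM in control lungs. Cd3e, Cd3d, Cd8a, Trac, Cd4 and Nkg7 were higher in each CuO_TTM lung than in each control lung, as were 31.0% of all genes. Of these, Cd3e, Cd3d, Cd8a and Trac passed the threshold against control (limma adjusted p = 0.0188, 0.0351, 0.0188 and 0.0280). Nkg7 and Cd4 did not (limma adjusted p = 0.0581 and 0.162). The natural killer markers Ncr1 and Klrb1c overlapped, with log2 differences from control of -1.11 and -0.78 (limma adjusted p = 0.35 and 0.42). The part of these cells in the level of Hcst was not tested. The call of Hcst against CuO was lost without CuO_TTM replicate 2 (adjusted p = 0.0980). It was also lost under 2 of the alternatives other than leaving out single libraries. These included the fit of the 2 groups alone, where no gene was called in this comparison. Vav1 and Malt1, which act further down the same pathway, differed from control by 1.61 (adjusted p = 0.109) and 1.32 (adjusted p = 0.198). None of the 16 genes passed in CuO against control (median -0.01), and 1, Hcst, did in CuO_TTM against CuO (median 0.60, beside 0.19 for all genes).

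Of 20 genes known from lipid-laden macrophages of other tissues, 3 rose and none fell in CuO_TTM lungs against control, beside 1.79% of all genes called higher. Of the 20 genes, 19 lay above 0, with a median of 1.56 beside 0.24 for all genes. Groups did not overlap for 15 of them, beside the 31.0% of all genes that were higher in each CuO_TTM lung. Fabp5, a fatty acid carrier, had 466, 691 and 515 TPM in CuO_TTM lungs, 355, 474 and 471 TPM in CuO lungs and 167, 165 and 134 TPM in control lungs, 1.82 above control on the log2 scale (SE 0.24, limma adjusted p = 0.0182). Each particle-exposed lung was above each control lung. Igf1, a growth factor made by macrophages and fibroblasts, had 15.1, 32.6 and 33.0 TPM in CuO_TTM lungs, 65.0, 36.3 and 39.0 TPM in CuO lungs and 8.17, 5.72 and 4.14 TPM in control lungs (1.95 above control in CuO_TTM, SE 0.38, limma adjusted p = 0.0382). It was the listed gene whose CuO_TTM lungs were below the CuO lungs without overlap, by a difference of -0.81 that did not pass the threshold (adjusted p = 0.678). Ctsz, a lysosomal protease, averaged 404 ± 68.6 TPM in CuO_TTM lungs, 395 ± 69.9 TPM in CuO lungs and 152 ± 54.7 TPM in control lungs (SD, n = 3 each), 1.44 above control in CuO_TTM lungs (SE 0.29, limma adjusted p = 0.0446). In CuO against control 0 of the 20 passed (median 1.12, beside 0.03 for all genes) and in CuO_TTM against CuO 0 passed (median 0.40).

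Lgals1, galectin-1, was the gene of the galectin list that rose, 1 of 7 tested, beside 1.79% of all genes. It had 763, 983 and 984 TPM in CuO_TTM lungs, 623, 568 and 430.2 TPM in CuO lungs and 188, 265 and 250.02 TPM in control lungs. The groups did not overlap, and the log2 difference between CuO_TTM and control lungs was 1.96 (SE 0.25, limma adjusted p = 0.0182). Against CuO it was 0.76 and did not pass (adjusted p = 0.336). The calls against control of Hcst, Fabp5, Igf1, Ctsz and Lgals1 were each lost without CuO_TTM replicate 2, CuO_TTM replicate 3 or any of the 3 control replicates (adjusted p of 0.0503 to 0.209). Those of Igf1 and Ctsz were also lost without CuO replicate 3 (0.0551 and 0.0618) and that of Ctsz without CuO_TTM replicate 1 (0.0940). Under scaling, Igf1 and Ctsz lost their calls with quantile normalization (0.0745 and 0.0541), and Lgals1 with median-ratio scaling (0.0502). Not every loss is itemized here. Over the 9 genes and Hcst, Fabp5, Igf1, Ctsz and Lgals1 together, 31 calls against control were lost under alternatives other than leaving out single libraries.

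The lists around stored and transported lipid held no gene past the threshold in any comparison. Among 15 tested lipid droplet genes, the median difference between CuO_TTM and control lungs was -0.20, beside 0.24 for all genes, and 2 were lower in each CuO_TTM lung than in each control lung, as were 5.73% of all genes. These were Hilpda, which inhibits lipid breakdown in droplets (59.3 ± 18.7 TPM in CuO_TTM lungs, 58.2 ± 19.6 TPM in CuO lungs and 134 ± 49.3 TPM in control lungs, SD, n = 3 each), and G0s2, another inhibitor of that step (23.5 ± 1.32 TPM, 27.0 ± 5.78 TPM and 50.4 ± 14.9 TPM in the same groups). Their differences between CuO_TTM and control lungs were -1.14 (limma adjusted p = 0.145) and -1.03 (limma adjusted p = 0.0982). Another 2, Bscl2 and Soat1, were higher in each CuO_TTM lung than in each control lung, as were 31.0% of all genes. Bscl2, seipin of the droplet neck, differed by 0.65 (adjusted p = 0.140). Soat1 had 56.9, 94.8 and 82.3 TPM in CuO_TTM lungs and 38.0, 41.6 and 35.9 TPM in control lungs. Among 7 lipoprotein lipase partners the median was 0.21, and Apoc2, the cofactor of the enzyme, came nearest to the threshold with 39.3 ± 19.0 TPM in CuO_TTM lungs and 9.75 ± 3.28 TPM in control lungs (1.85, limma adjusted p = 0.0549). Gpihbp1, which anchors the enzyme on capillaries, differed by -0.63 (adjusted p = 0.319) and Apoc1 by 0.82 (adjusted p = 0.379). Among 14 APOE receptor and cholesterol efflux genes the median was 0.43, with Lrp8 at 0.84 (adjusted p = 0.183), Npc2 at 0.83 (adjusted p = 0.315) and Npc1 at 0.52 (adjusted p = 0.355).

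Osteopontin receptors, tetraspanins and the regulators of these genes were likewise without a call. The 9 osteopontin receptors had a median of 0.50 in CuO_TTM against control, with Itga5 at 1.02 (limma adjusted p = 0.111), Itgav at 0.79 (adjusted p = 0.332) and Cd44 at 0.90 (adjusted p = 0.352). The 9 other tetraspanins had a median of 0.31, with Tspan4 at 1.29 (adjusted p = 0.0884), Cd37 at 1.41 (adjusted p = 0.0917) and Cd82 at 0.77 (adjusted p = 0.148), while Cd9 itself was at -0.25. The 9 tested MiT/TFE and PPAR regulators had a median of 0.63, with Tfe3 at 0.82 (adjusted p = 0.1), Bhlhe40 at 1.40 (adjusted p = 0.193) and Tfec at 1.08 (adjusted p = 0.224).

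**Figure D5:**
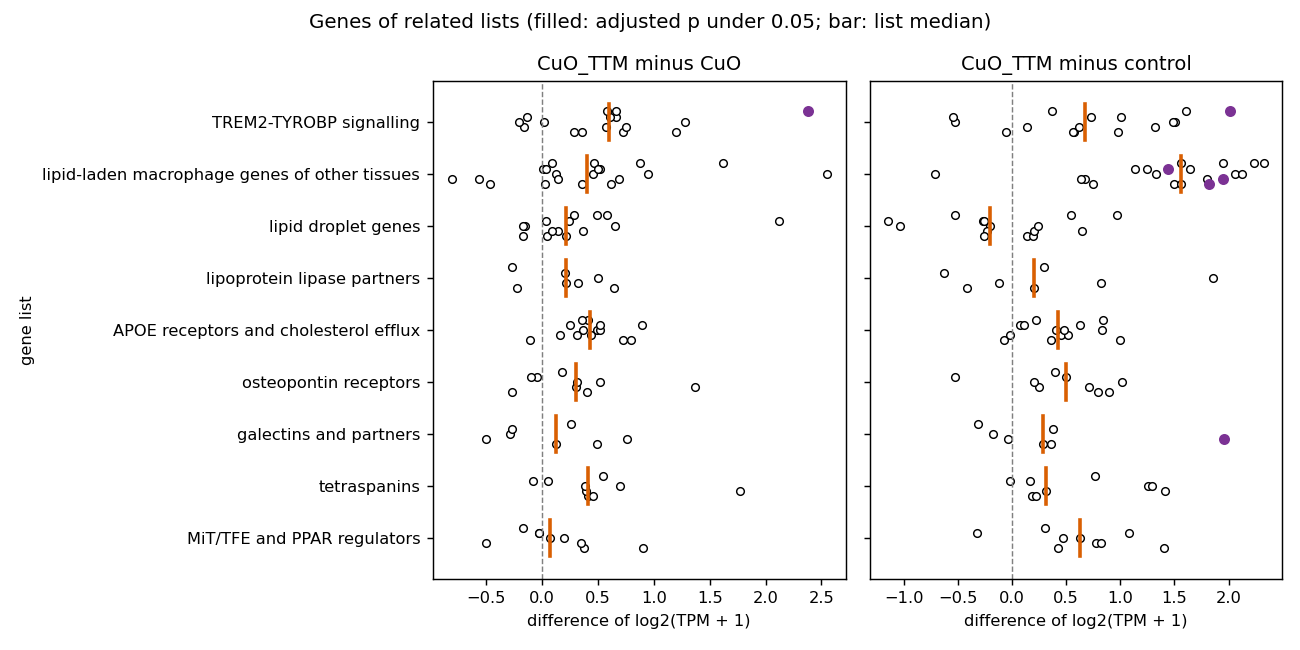
Difference of log2(TPM + 1) for each tested gene (points) of the 9 lists between CuO_TTM and CuO lungs (left) and between CuO_TTM and control lungs (right), 3 mice per group, with filled points at a limma adjusted p under 0.05 and bars at list medians. The list of lipid-laden macrophage genes has its median at 1.56 against control and the lipid droplet list at -0.20.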

How the data were processed

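RNA from the lungs of 9 mice was measured as poly(A)-selected, stranded Illumina libraries, per the labels' protocols. The authors deposited 1 table of TPM for 57010 Ensembl identifiers. The submitters' processing notes name fastp, HISAT2, RSEM and DESeq2 and the build GRCm39. Versions and roles are not given in the sources used here. TPM keep no depth, so no counting interval was computed, and the number of mice limits the precision. Symbols were matched for 52029 identifiers.

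TPM were transformed to log2(TPM + 1), and genes at 1 TPM or more in at least 3 libraries were kept. limma 3.58.1 in R 4.3.3 was fitted to all 9 libraries with group means and an abundance trend. Adjustment followed Benjamini and Hochberg over 15487 genes, with a threshold of 0.05. The procedure was run on simulated data with independent noise, in which only CuO against control held differences. That simulation held no outlying library and no shift of Scgb1a1, so it cannot show how stable the CuO_TTM calls are. Fold changes are differences of log2(TPM + 1), which understate changes of low genes. The members and lists were chosen with earlier results of these data known. All 9 members are named in every comparison, and from each list the 3 genes of smallest p and those past the threshold in CuO_TTM against control. Soat1 was added because its groups did not overlap. Genes with a like pattern were the 5 with the highest Pearson correlation among those with a mean of at least 5 TPM, leaving out predicted genes. For Gpnmb, 1 of the 5 is not reported here. Replicate numbers come from the titles, nothing in the labels pairs them, and no block was used. Alternatives were other scalings, a pseudocount of 0.1, other filters, no trend, the 2 groups alone, a replicate block and leaving out libraries. Planned searches of protein sequences were not made, for want of a protein table.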

Additional observations from a re-analysis of the deposited data

How the results depend on the processing

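No CuO_TTM against CuO call was made for the 9 genes under any alternative, and against control 0 to 4 of them were called. The number of all genes called depended on the processing, and the cause was not tested. In CuO against control, where limma called 0, it was 7 under median-ratio scaling, 3 with no filter, 3 with the replicate block, 324 without CuO replicate 1 and CuO_TTM replicate 1 together, and 0 to 35 with single libraries left out (35 without CuO replicate 1). In CuO_TTM against CuO it was 110, 41 with a pseudocount of 0.1, 30 with no filter, 67 with a mean of at least 5 TPM, 0 with the 2 groups alone, 1 without CuO_TTM replicates 2 and 3, 296 without both replicates 1, and 1 to 148 with single libraries left out (1 and 60 without CuO_TTM replicates 2 and 3, 56 and 69 without CuO replicates 1 and 3, and 52, 52 and 54 without control replicates 1, 2 and 3). In CuO_TTM against control it was 294, 122 without Scgb1a1, 183 with a pseudocount of 0.1, 56 with no filter, 113 with the replicate block, 1378 with the 2 groups alone, 1 without CuO_TTM replicates 2 and 3, 2204 without both replicates 1, and 3 to 1660 with single libraries left out (8 and 12 without CuO_TTM replicates 2 and 3, 1660 without CuO replicate 1, and 8, 3 and 29 without control replicates 1, 2 and 3). Its split of 277 higher and 17 lower became 227 and 64 under quantile normalization and 209 and 53 under median-ratio scaling. The alternative without both replicates 1 was chosen after seeing the data.

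The replicate numbers do not pair the mice. Same-numbered lungs deviated with correlations of -0.371 to 0.286, and 1 of 9 libraries correlated best with its own number. With the replicate block, Lgals3 (adjusted p = 0.0793), Ctsz (0.0896) and Igf1 (0.0838) lost their calls against control.

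Trem2, Gpnmb and Lgals3 stayed above control under each alternative. Without CuO_TTM replicates 2 and 3 together, differences from control were 2.25 for Trem2 (limma adjusted p = 0.418), 2.76 for Gpnmb (0.551) and 2.03 for Lgals3 (0.441). With no filter all 3 calls were lost (limma adjusted p = 0.0764, 0.124 and 0.119).

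Signs flipped only for differences that did not pass the threshold. In CuO_TTM against CuO, Gpnmb was at -0.15 under quantile normalization, -0.12 under median-ratio scaling, -0.87 without CuO_TTM replicates 2 and 3 and -0.21 without both replicates 1. Without both replicates 1, Trem2 was at 0.29, Apoe 0.48, Lpl 0.43 and Plin2 -0.27, and Cd9 against control 0.0525. With single libraries left out, this comparison ranged from -0.50 to 0.55 for Trem2, -0.70 to 0.61 for Gpnmb, -0.13 to 0.0385 for Tyrobp, -0.44 to 0.61 for Apoe and -0.24 to 0.29 for Lpl. Against control, Lpl was at -0.20 under quantile normalization, -0.17 under median-ratio scaling, -0.16 without Scgb1a1 and -0.58 without CuO_TTM replicates 2 and 3, and with single libraries left out Lpl ranged from -0.24 to 0.59 and Cd9 from -0.48 to 0.0525.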
